A study of Mus musculus with 8 samples.

Results

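Triadin, encoded by Trdn, and 9 further genes of the calcium release complex of striated muscle were followed in thoracic perivascular fat, the adipose tissue that surrounds the thoracic aorta. The 10 genes are Trdn, Asph, Casq1, Casq2, Ryr1, Ryr2, Jph1, Jph2, Atp2a1 and Atp2a2, out of 18782 genes that had a probe set of their own. Trdn was picked because it differed between the groups in these same arrays, so its difference is described here with no test. The other 9 were taken for their roles beside triadin, each through the probe set with the highest mean over all arrays. All 19 Trdn probe sets, of 28371 on the array, were kept.

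The comparison was of 4 RictoraP2KO with 4 control arrays, 1 per sample. RictoraP2KO mice lack Rictor, the defining subunit of mTOR complex 2, where Cre recombinase is expressed from the aP2 promoter, which is active in fat cells; the series title names both brain and fat as sites of deletion. The control mice carried the floxed gene (Rictorfl/fl) without a named Cre. All mice were male, 17 to 22 weeks old, starved overnight and killed at 9 am, and nothing in the labels says whether each sample is 1 animal, so p-values measure only the spread between these samples. Values are log2 RMA signals, differences are RictoraP2KO minus control on that scale with their standard error (SE), and an adjusted p is from limma over all 28371 probe sets with a threshold of 0.05. Signals of different probe sets are not set against each other, because each has its own probes.

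In striated muscle the ryanodine receptors are the channels through which calcium leaves the sarcoplasmic reticulum at each contraction. Triadin and junctin are membrane proteins that tie the receptor to calsequestrin, which stores calcium inside the reticulum. Junctophilins hold the reticulum close to the surface membrane, and SERCA pumps return the calcium. Brown fat cells are not contractile, but they do carry SERCA and ryanodine receptors, and calcium cycling through them has been studied as a source of heat.

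The tissue carried most markers of brown fat and of fat cells. Ucp1, the uncoupling protein, ran from 11.32 to 12.01 and Adipoq, which encodes adiponectin, from 10.85 to 11.08. In each of these 2 lists 10 of 11 measured genes lay above the array median on average. The exceptions were Zic1 of the brown fat list, at 1.69 to 1.91, and Lep of the fat cell list, at 2.74 to 5.81. The Rictor signal itself was not lower under the knockout label (6.68 ± 0.08 against 6.54 ± 0.06, SD, n = 4; limma adjusted p = 0.685), so directions below rest on the labels. A total of 3 arrays stood apart by markers of other tissues. RictoraP2KO replicate 2 had the highest means of the 22 skeletal and 19 cardiac muscle markers, control replicate 2 of lung epithelial markers (2.30) and control replicate 3 of neuron markers (1.22). RictoraP2KO replicate 2 was also highest for lymphoid markers (0.89). Over 9 lists of cell type markers the exact permutation p of the group difference ran from 0.143 to 0.971. In bulk tissue, fewer cells of a type and less RNA per cell cannot be told apart.

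The Trdn probe set with the highest mean signal (10362420) was higher in all 4 RictoraP2KO arrays than in any control array. RictoraP2KO replicates 1 to 4 stood at 6.17, 6.62, 6.75 and 6.76, and control replicates 1 to 4 at 5.26, 5.57, 5.20 and 5.24. The lowest knockout array lay above the highest control array, which was replicate 2. Group means were 6.57 ± 0.28 and 5.32 ± 0.17 (SD, n = 4), a difference of 1.26 (SE 0.142). RictoraP2KO replicate 2, the array with the most muscle marker signal, was not the highest on this probe set.

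The 19 Trdn probe sets did not show 1 pattern, although 18 of them are listed with the same single RefSeq transcript, NM_029726, and the other with it and a second accession. All 19 differences were above 0, from 0.021 to 1.71 with a median of 0.34; over the array 48.7% of probe sets were above 0. In 4 probe sets the groups did not overlap, a property that 2.08% of all probe sets had with RictoraP2KO higher. Since Trdn was chosen on this contrast, nothing is read from these counts. The 19 are described below by how many knockout arrays exceeded every control array, which was 4 arrays for 4 probe sets, 3 for 4, 2 for 1, 1 for 9 and 0 for 1.

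**Figure D1:**
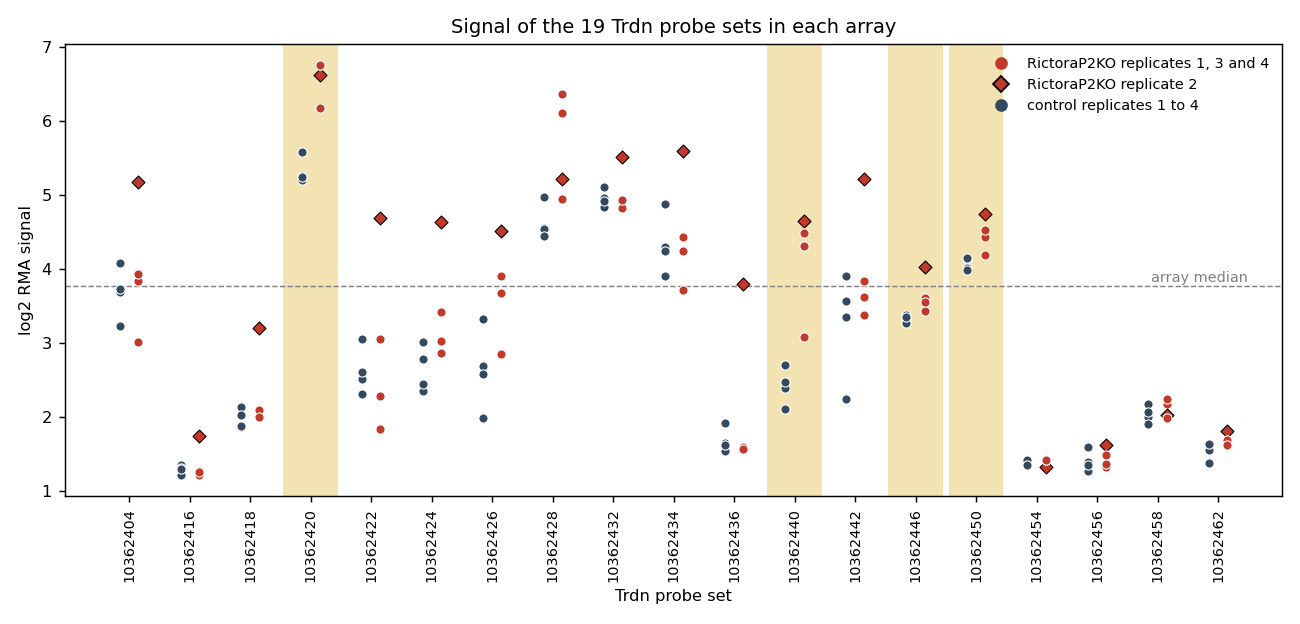
Log2 RMA signal (vertical axis) of the 19 Trdn probe sets (horizontal axis), 1 point per array, with controls to the left in dark blue and RictoraP2KO to the right in red; the diamond is RictoraP2KO replicate 2, the dashed line the array median of 3.76, and shading marks the 4 probe sets whose groups did not overlap. In the unshaded sets 10362404, 10362434 and 10362436 the diamond alone lies above every control, while in 10362420 and 10362440 all 4 red points do.

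The largest difference belonged to probe set 10362440. Its signal was 3.07, 4.64, 4.30 and 4.49 in RictoraP2KO replicates 1 to 4 and 2.39, 2.70, 2.10 and 2.46 in the controls, a difference of 1.71 (SE 0.315). Here replicate 1 was the lowest knockout array and still exceeded every control. Probe set 10362450 stood at 4.18, 4.74, 4.43 and 4.52 against 4.13, 4.14, 4.01 and 3.98, a difference of 0.40 (SE 0.112). Probe set 10362446 stood at 3.43, 4.02, 3.61 and 3.55 against 3.29, 3.37, 3.27 and 3.34, a difference of 0.33 (SE 0.117). In these last 2 the groups were separated by small gaps, and 10362440 and 10362446 both lay below the array median of 3.76 on average (3.27 and 3.48).

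In 4 further probe sets 3 knockout arrays exceeded all controls. Probe set 10362428 stood at 4.94, 5.21, 6.11 and 6.37 in RictoraP2KO replicates 1 to 4 and at 4.55, 4.97, 4.53 and 4.43 in the controls, a difference of 1.04 (SE 0.303). Only replicate 1 fell inside the control range, just under control replicate 2, and replicates 3 and 4 were the highest. Probe set 10362426 differed by 1.09 (SE 0.364), 10362424 by 0.84 (SE 0.355) and 10362462 by 0.17 (SE 0.074). The first 2 of these were highest in RictoraP2KO replicate 2 and had replicate 1 as the knockout array inside the control range.

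In the other 11 probe sets at most 2 knockout arrays exceeded all controls. In 8 of the 9 with a single knockout array above all controls, that array was RictoraP2KO replicate 2. Probe set 10362404, the one with the second accession, stood at 3.00, 5.17, 3.84 and 3.92 in RictoraP2KO replicates 1 to 4 and at 3.68, 4.08, 3.23 and 3.72 in the controls. Its highest and its lowest array were both knockout arrays, replicates 2 and 1. Probe set 10362436 reached 3.80 in RictoraP2KO replicate 2, the 7 other arrays lying between 1.53 and 1.91. Over the 19 probe sets 15 were highest in RictoraP2KO replicate 2, where 15.4% of all probe sets were. The 19 read 1 gene that was picked for its difference between the groups, so that share is no measure of what to expect for them.

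The differences were also computed without RictoraP2KO replicate 2. Without it 12 of the 19 differences were above 0 and 7 below, and the median went from 0.34 to 0.099. Among the 4 probe sets whose groups did not overlap the differences were then 0.21 to 1.54, with 1.24 for 10362420 and 1.54 for 10362440. For 10362404 the difference went from 0.31 to -0.088, for 10362434 from 0.17 to -0.20 and for 10362422 from 0.34 to -0.23. Without all 3 arrays that stood apart, 13 differences were above 0, and 10362420 differed by 1.31 and 10362440 by 1.53.

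Whether Trdn followed striated muscle signal was examined with marker lists that contain none of the 10 genes. The cardiac list, which includes the sarcomere genes Actc1, Myl7 and Tnnt2 and the hormone gene Nppa, was summarised per array as the mean deviation of its 19 genes from their means over the 8 arrays. In RictoraP2KO replicates 1 to 4 it stood at -0.85, 1.12, -0.36 and 0.04, and in control replicates 1 to 4 at 0.14, 0.47, -0.66 and 0.09. Both the lowest and the highest array were thus knockout arrays, and the groups overlapped. The groups differed by -0.023 (exact two-sided permutation test p = 0.971, 0.971 adjusted over 9 marker lists), and it was -0.40 without RictoraP2KO replicate 2 and 0.26 without replicate 1. Of its genes, 15 of 19 were highest in RictoraP2KO replicate 2, Nppa reaching 8.19 there against 3.24 to 5.33 in the others. The sarcomere genes Myl2 and Myl3 were not. Myl2 lay between 2.48 and 2.71 in all arrays, and Myl3 was highest in control replicate 1 (3.62, against 3.29 in RictoraP2KO replicate 2). Myh6 had no probe set of its own.

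The skeletal list of 22 genes held 1 array apart from the rest. RictoraP2KO replicate 2 stood at 0.96 and the other 7 between -0.24 and -0.05. Myh4, a fast myosin heavy chain, was 4.94 in that array and at most 2.37 in any other, and 18 of the 22 genes were highest there. Myl1, in contrast, was lowest in that array, at 7.75 where the others lay between 7.78 and 8.56. Only 6 of the 22 lay above the array median on average. The group difference was 0.20 (exact two-sided permutation test p = 0.943, 0.971 adjusted over 9 lists) and -0.091 without that array. Because 1 array stood apart, no correlation with this list is given.

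Against the cardiac mean, over 8 arrays that share a normalisation, the Trdn probe sets again differed. Probe set 10362420 had Pearson r = 0.15 (exact permutation p = 0.732, 0.789 adjusted over 28 relations) and Spearman rho = 0.048 (exact permutation p = 0.935, 0.970 adjusted), and r = -0.092 without the 2 arrays farthest from the median, RictoraP2KO replicates 1 and 2. Probe set 10362404 had r = 0.94 (exact permutation p = 0.00104, 0.00729 adjusted) and rho = 0.79 (exact permutation p = 0.0279, 0.0977 adjusted), and r = 0.79 without those 2 arrays. For 10362434 r was 0.96 (exact permutation p = 0.000248, 0.00521 adjusted), rho 0.88 (exact permutation p = 0.00724, 0.0676 adjusted) and r without the 2 arrays 0.88. The 4 probe sets whose groups did not overlap had r from 0.15 to 0.60, and from -0.092 to -0.0069 without the 2 arrays. Each r is pooled over both groups, whose cardiac means differed by only -0.023. A group difference in a probe set therefore lowers its r over the 8 arrays. A low r thus cannot show whether these 4 follow the cardiac mean within the groups. Of the 19, 4 had a positive r with an adjusted p under the threshold (10362404, 10362422, 10362434 and 10362436) and 1, the dim 10362454, a negative one. By Spearman's rho 0 of the 28 relations passed after adjustment, the lowest adjusted p being 0.0625. Groups of 4 are too small for a correlation within a group.

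**Figure D2:**
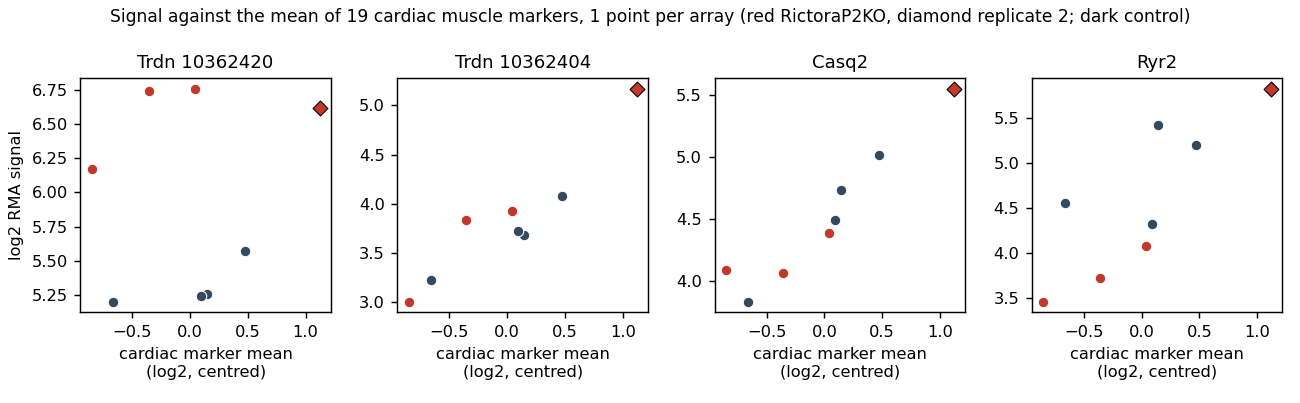
Log2 RMA signal (vertical axes, each with its own range) against the centred log2 mean of 19 cardiac muscle markers (horizontal axes), 1 point per array, red for RictoraP2KO with replicate 2 as a diamond and dark blue for control. For Trdn 10362420 all red points lie above all blue ones, and this offset between the groups lowers the pooled r (0.15). Within each colour its lowest point is also the one lowest in the marker mean, so the panel does not show whether it follows that mean within the groups. Trdn 10362404 (r = 0.94), Casq2 (r = 0.96) and Ryr2 (r = 0.82) climb with the marker mean over all arrays.

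With the marker mean of an array as a covariate, the difference of 10362420 was 1.26 (SE 0.129) for the cardiac list and 1.24 (SE 0.154) for the skeletal list, beside 1.26 with neither. For 10362440 the values were 1.73 and 1.57. The skeletal covariate brought the median of the 19 to 0.14, with 4 differences below 0, whereas with the cardiac covariate all 19 stayed above 0. Because the skeletal mean set RictoraP2KO replicate 2 apart from the rest, the skeletal covariate mainly marks that array. It is therefore no separate check beside leaving that array out. The difference of 10362404 was 0.021 with the skeletal covariate. With the cardiac covariate it was 0.33, beside 0.31 with neither. The cardiac mean itself differed between the groups by only -0.023, so the cardiac covariate could move no group difference by much, whether or not a probe set tracks that mean.

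Of the 9 other genes 0 passed the test at an adjusted p under 0.05 (limma; 0.00352% of all probe sets passed), and 0 had an unadjusted p under 0.05, where 7.27% of all probe sets did. Adjusted p-values ran from 0.819 to 0.9995, 5 differences were above 0 and 4 below, and the median was 0.0017 against -0.0080 over all genes. The groups overlapped for all 9, where those of 4.25% of probe sets did not, in either direction. For 7 of them, all but Asph and Jph1, the highest array was RictoraP2KO replicate 2.

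**Figure D3:**
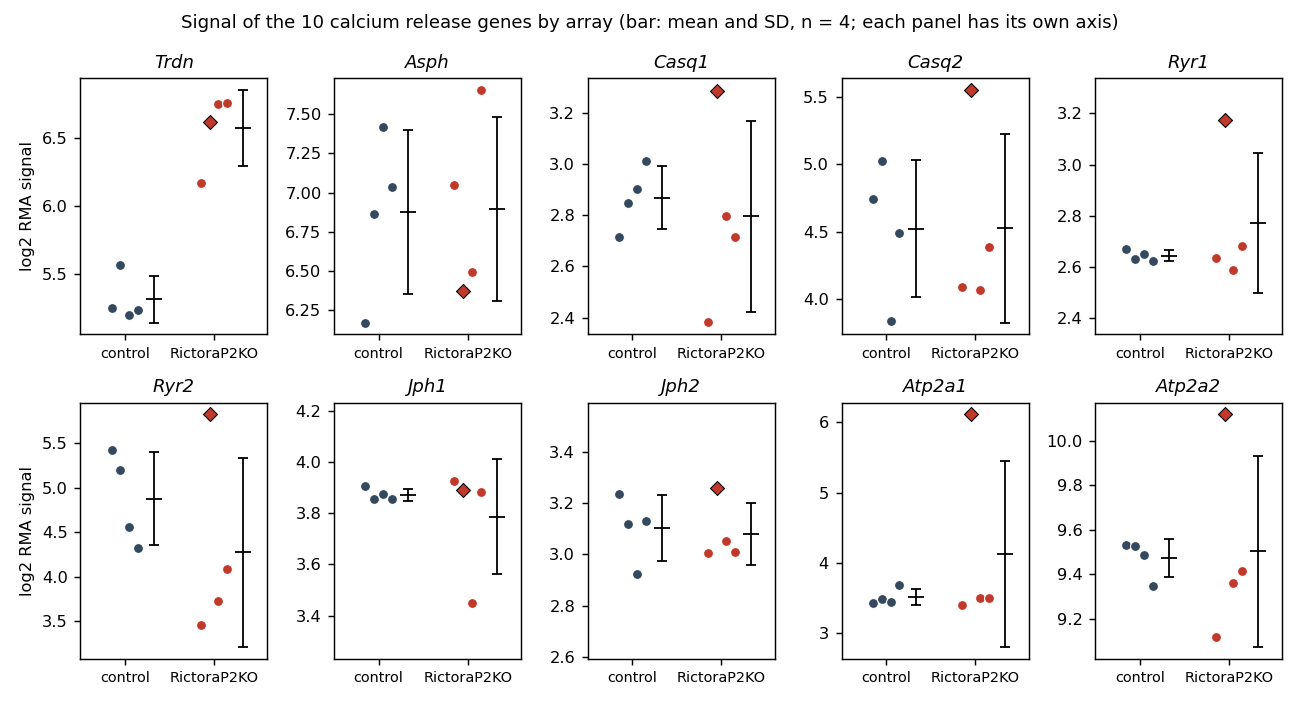
Log2 RMA signal (vertical axes, each panel with its own range) of the 10 genes in control (dark blue) and RictoraP2KO arrays (red, replicate 2 as a diamond), with mean and SD (n = 4). Trdn alone has all 4 red points above the blue ones, while Atp2a1, Casq2, Ryr2 and Atp2a2 have only the diamond above them.

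Upstream sequences are shown for 4 of the genes that shared this array as their highest: the calsequestrin pair of heart and skeletal muscle, and the heart gene Ryr2 and the skeletal gene Atp2a1, which ranged most widely over the arrays. They are the 250 bases before the annotated start, 5′ to 3′ on the strand of the gene, from RefSeq on GRCm38.p6, which had an entry for 6 of the 10 genes. Capitals mark matches to the E-box letters CANNTG, a motif bound by muscle regulators among many factors, on either strand.
Casq2, chr3:102086165-102086414, + strand: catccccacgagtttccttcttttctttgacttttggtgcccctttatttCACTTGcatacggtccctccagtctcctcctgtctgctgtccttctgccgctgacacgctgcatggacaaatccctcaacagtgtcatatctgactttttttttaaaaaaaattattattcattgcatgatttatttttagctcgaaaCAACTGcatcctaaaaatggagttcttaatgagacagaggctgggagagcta
Casq1, chr1:172219896-172220145, - strand: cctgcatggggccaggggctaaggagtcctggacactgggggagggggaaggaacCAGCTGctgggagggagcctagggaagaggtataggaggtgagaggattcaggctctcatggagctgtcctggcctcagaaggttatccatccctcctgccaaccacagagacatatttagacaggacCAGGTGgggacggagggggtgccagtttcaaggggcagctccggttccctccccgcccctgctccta
Ryr2, chr13:12106946-12107195, - strand: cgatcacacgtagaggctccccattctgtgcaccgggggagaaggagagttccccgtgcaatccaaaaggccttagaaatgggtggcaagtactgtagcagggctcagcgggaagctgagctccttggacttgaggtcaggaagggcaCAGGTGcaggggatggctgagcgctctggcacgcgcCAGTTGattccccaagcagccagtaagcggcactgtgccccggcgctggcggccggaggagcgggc
Atp2a1, chr7:126463074-126463323, - strand: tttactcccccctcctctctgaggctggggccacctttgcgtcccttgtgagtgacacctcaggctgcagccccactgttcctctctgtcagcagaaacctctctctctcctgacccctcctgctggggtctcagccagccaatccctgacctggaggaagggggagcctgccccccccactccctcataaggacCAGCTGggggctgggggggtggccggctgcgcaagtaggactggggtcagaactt
Casq1, Casq2 and Ryr2 each held 2 matches, Atp2a1 and Jph2 held 1, and Ryr1 held 0, where 66.2% of 32851 promoters of this length held at least 1. The letters CTANNNNTAG, which cover only some forms of the MEF2 site, were in 3.2% of promoters and in none of these 6. Other forms, such as those that begin with TTA, were not searched for. The absence of these letters therefore does not show that a gene lacks a MEF2 site. A match says only that the letters are there.

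Asph encodes junctin as well as aspartate beta-hydroxylase and junctate, and its probe set does not tell these products apart. It stood at 7.05, 6.38, 6.50 and 7.65 in RictoraP2KO replicates 1 to 4 and at 6.17, 6.87, 7.42 and 7.04 in the controls. Arrays varied over more than a log2 unit in both groups, and the groups differed by 0.020 (SE 0.327; 95% interval -0.72 to 0.76; limma adjusted p = 0.995). Unlike most of the 10, it was low in the array with the most muscle signal.

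The calsequestrins, the calcium buffers that triadin anchors, come as Casq1 of fast skeletal muscle and Casq2 of heart. Casq2 stood at 4.09, 5.55, 4.07 and 4.39 in RictoraP2KO replicates 1 to 4 and at 4.74, 5.02, 3.84 and 4.49 in the controls, an order close to that of the cardiac markers. The groups differed by 0.0017 (SE 0.358; 95% interval -0.81 to 0.81; limma adjusted p = 0.9995), and -0.34 without RictoraP2KO replicate 2. Its r with the cardiac mean was 0.96 (exact permutation p = 0.000372, 0.00521 adjusted), rho 0.93 (exact permutation p = 0.00223, 0.0625 adjusted), and r 0.98 without the 2 farthest arrays. Casq1 lay below the array median in all 8 arrays, between 2.38 and 3.29, with the ends of that range both in knockout arrays (replicates 1 and 2). It differed by -0.073 (SE 0.168; limma adjusted p = 0.945).

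Of the ryanodine receptors, Ryr1 is the channel of skeletal muscle and Ryr2 that of heart. Ryr2 stood at 3.46, 5.82, 3.72 and 4.09 in RictoraP2KO replicates 1 to 4 and at 5.43, 5.20, 4.55 and 4.33 in the controls. Replicates 1, 3 and 4 lay below every control and replicate 2 above every control. The difference was -0.60 (SE 0.490; 95% interval -1.71 to 0.51; limma adjusted p = 0.819). Without RictoraP2KO replicate 2 it was -1.12 (SE 0.277; limma adjusted p = 0.761) and the groups did not overlap, as for 3.43% of all probe sets with RictoraP2KO lower. Cardiac markers were also lower in those 3 knockout arrays (-0.85 to 0.04) than in 3 of the 4 controls (0.09 to 0.47). They were low as well in control replicate 3 (-0.66), where Ryr2 stood at 4.55. Over all 8 arrays with the cardiac mean as a covariate, Ryr2 differed by -0.58 (SE 0.253, limma adjusted p = 0.681), beside -0.60 without the covariate. Over those arrays the cardiac mean differed by only -0.023, so this covariate could move the Ryr2 difference little. Without RictoraP2KO replicate 2 the cardiac mean differed by -0.40, and no covariate fit was made there. The part of muscle signal in the -1.12 was therefore not tested. Ryr1 reached 3.18 in RictoraP2KO replicate 2, the other 7 lying between 2.59 and 2.68, all below the array median; it differed by 0.13 (SE 0.122; limma adjusted p = 0.846) and by -0.0094 without that array.

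The junctophilins varied little. Jph1, of skeletal muscle, stood at 3.93, 3.89, 3.45 and 3.88 in RictoraP2KO replicates 1 to 4 and between 3.85 and 3.91 in the controls. The low array was RictoraP2KO replicate 3, and its second probe set (10353311) was lowest there too, at 3.26. Jph1 differed by -0.086 (SE 0.104; limma adjusted p = 0.875), and by -0.099 (SE 0.129) on the second probe set. Jph2, of heart, lay below the array median, between 2.93 and 3.26, with a difference of -0.022 (SE 0.087; limma adjusted p = 0.973); its second probe set (10489357) had the other sign, at 0.077 (SE 0.079).

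The SERCA pumps are Atp2a1 of fast skeletal muscle and Atp2a2, which is found in heart and slow muscle and in its shorter form in most cells. Atp2a1 reached 6.11 in RictoraP2KO replicate 2, the other 7 arrays lying between 3.40 and 3.69. A single array therefore carried its difference of 0.61 (SE 0.550; 95% interval -0.63 to 1.86; limma adjusted p = 0.837), which was -0.050 without it. Atp2a2 stood at 9.12, 10.12, 9.36 and 9.41 in RictoraP2KO replicates 1 to 4 and at 9.53, 9.53, 9.49 and 9.35 in the controls. It differed by 0.029 (SE 0.187; 95% interval -0.40 to 0.45; limma adjusted p = 0.983), and by -0.18 without RictoraP2KO replicate 2. In these pumps, as in Casq1, Casq2, Ryr1, Ryr2 and Jph2, the highest array was the one with the most muscle marker signal. For Jph2 the lead over control replicate 1 was small (3.26 against 3.24). Its second probe set was highest in RictoraP2KO replicate 4 instead (2.94, against 2.87 in replicate 2).

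The wider set of calcium handling genes was taken from 5 lists with 53 measured genes, 43 of them outside the 10. Of those 43, 0 passed the test (limma, lowest adjusted p = 0.668), where 0.00352% of all probe sets did. An unadjusted p under 0.05 was found for 2 of the 43 and for 7.27% of all probe sets. Differences ran from -0.30 to 0.22, with 20 above 0, 23 below and a median of -0.019, beside -0.0080 over all genes, of which 46.8% were above 0. The values by list include the 10 genes, with Trdn, picked for its difference, in the release list. Medians were 0.0045 for 16 genes of the release channel and its partners (9 above 0, Trdn among them). They were -0.022 for 12 of junctions and T tubules (4 above 0) and 0.026 for 6 of the L-type calcium channel (3 above 0). They were 0.014 for 9 pumps, exchangers and their regulators (5 above 0) and -0.031 for 10 genes of calcium stores in other cells (5 above 0).

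Named by their p-values, the release partners S100a1, a calcium sensor that binds the receptor, and Tmem38b, a counter-ion channel of the reticulum, differed by 0.078 (SE 0.051) and -0.29 (SE 0.218). At the junctions Cav3, the caveolin of muscle, differed by 0.13 (SE 0.076), Mtm1, myotubularin, by 0.16 (SE 0.122) and Cavin4, a caveolar protein of muscle, by -0.30 (SE 0.256). In the L-type channel Cacna1c, the pore subunit of heart and smooth muscle, averaged 4.84 ± 0.15 in RictoraP2KO and 4.62 ± 0.12 in control arrays (SD, n = 4), and differed by 0.22 (SE 0.094; limma adjusted p = 0.685), and Cacnb4 and Cacna2d1 differed by 0.11 and -0.30. Among pumps and exchangers the values were -0.079 for the sodium exchanger Slc8a3, -0.19 for Sln, which encodes the SERCA inhibitor sarcolipin, and -0.26 for the pump Atp2a3. Among stores of other cells Mcu, the mitochondrial calcium uniporter, averaged 5.93 ± 0.12 in RictoraP2KO and 6.13 ± 0.12 in control arrays (SD, n = 4), and differed by -0.20 (SE 0.084; limma adjusted p = 0.668), while the reticulum chaperone Calr differed by 0.13 and the store-operated channel Orai3 by -0.13. None of these genes passed.

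**Figure D4:**
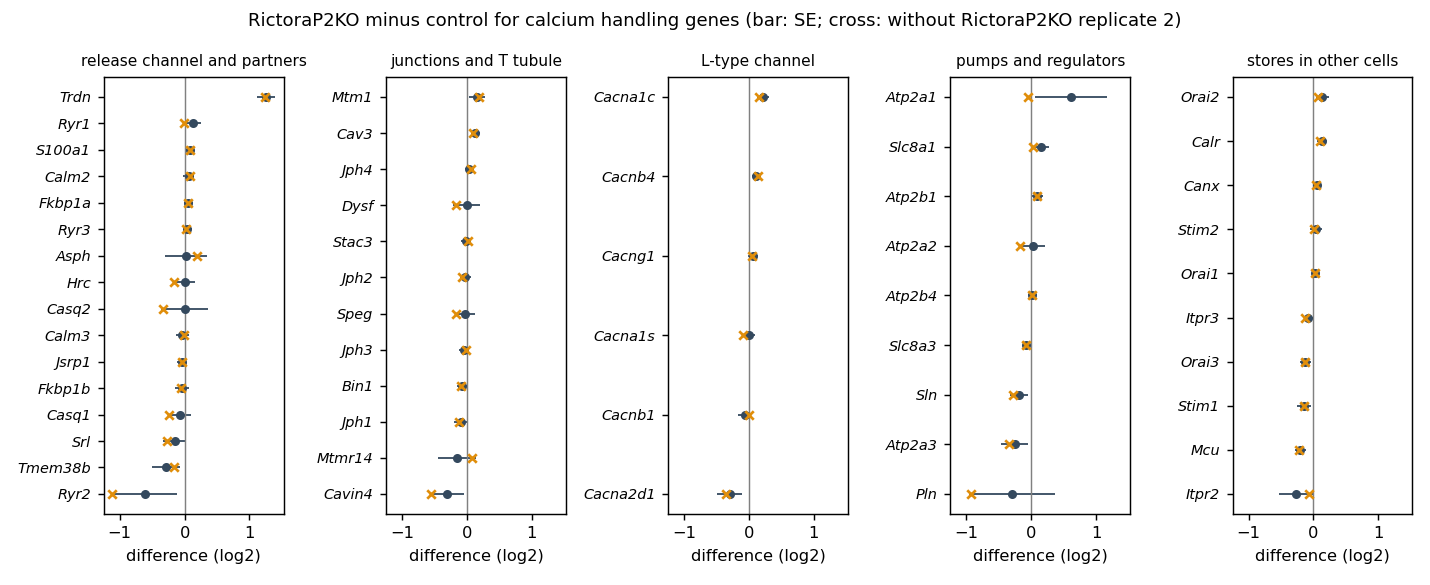
Difference RictoraP2KO minus control on the log2 scale (horizontal axis) with its SE for 53 calcium handling genes in 5 lists (panels), and the same difference without RictoraP2KO replicate 2 as a cross. Trdn stands at 1.26 with its cross beside it, whereas the Atp2a1 point lies at 0.61 and its cross at -0.050, and the Ryr2 point at -0.60 and its cross at -1.12.

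Genes whose pattern was most like Trdn 10362420 were ranked by Pearson r over the 8 arrays among 10410 genes above the array median. The 10 highest, with r from 0.91 to 0.96, were AY512931, Cyb5r4, Parl, Gemin4, Nrip1, Ap5m1, Ssr1, Cdk9, Pcmtd1 and Dtx4. None is a gene of the marker or calcium lists. AY512931 stood at 3.85, 4.03, 4.37 and 4.41 in RictoraP2KO replicates 1 to 4 and at 3.50, 3.59, 3.53 and 3.37 in the controls, and Nrip1, a nuclear corepressor, at 6.24, 6.29, 6.30 and 6.55 against 5.85, 5.84, 5.94 and 5.65. Since 10362420 itself separates the groups, a high r favours genes that do so, and a gene whose groups do not differ gets a lower r. Of the 10, 7 had groups that did not overlap, a property that 2.08% of all probe sets had with RictoraP2KO higher. None passed the test (limma adjusted p 0.4997 to 0.745). Cardiac markers had r from -0.67 to 0.49 with 10362420, with a median of 0.16. Over the 9 other members r ran from -0.41 for Jph1 to 0.37 for Atp2a1, with 0.36 for Ryr1, 0.11 for Casq2 and -0.27 for Ryr2. In the list of the release channel and its partners, Trdn aside, the highest r was 0.88 for S100a1 and the lowest -0.50 for Tmem38b. S100a1 stood at 10.64 to 10.73 in RictoraP2KO and 10.56 to 10.62 in control arrays.

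The same ranking for probe set 10362404, chosen after its values were seen, gave muscle genes. Its 10 highest, with r from 0.93 to 0.96, included Ttn, Ldb3, Actn2, Mb, Ckm and Pygm, all 6 in the muscle lists, and otherwise Atp5g1, Slc25a33, Gata4 and Ahsa1. Ttn, the giant sarcomere spring, stood at 3.47, 6.60, 4.12 and 4.47 in RictoraP2KO replicates 1 to 4 and at 4.64, 5.21, 3.67 and 4.60 in the controls. Over the cardiac list the median r with this probe set was 0.88, and over the 15 markers shared by heart and skeletal muscle 0.93. RictoraP2KO replicate 2 was the highest array for 13 of those 15, so these values share the weight of 1 array.

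None of the measured genes next to Trdn on its chromosome separated the groups as 10362420 did. Of the 5 nearest protein-coding genes on each side in the RefSeq order of GRCm38.p6, 9 had a probe set of their own. Nkain2 and Clvs2, the immediate neighbours, differed by -0.17 (SE 0.113) and -0.15 (SE 0.087). Over the 9 genes the differences ran from -0.17 to 0.13. Nkain2, Clvs2, Sult3a2, Sult3a1 and Rsph4a had group means between 1.31 and 2.41, below the array median of 3.76. At such low signal a shared pattern could be missed. The groups overlapped for all 9, where those of 4.25% of all probe sets did not, in either direction. Of the 9, 0 passed (limma, lowest adjusted p = 0.766), where 0.00352% of all probe sets did.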

How the data were processed

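Each of 8 RNA samples (5 µg of total RNA) was hybridised to 1 single-colour Affymetrix array. Per the submitters' processing notes, the authors used RMA and Affymetrix Power Tools 1.10.2; the file holds their log2 signals, 1 per probe set, as deposited. These ranged over 1.05 to 12.52. A genome build was not given in these sources, and sorted arrays differed by at most 0.03 at any rank, so a change in total RNA output would not be seen. The platform annotation paired 21158 probe sets with 1 gene symbol, and only those were used for names; 1881 had more than 1 symbol and 5332 had none.

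limma 3.58.1 in R 4.3.3 (lmFit, eBayes, two-sided, no filter or covariate) was run on all probe sets with Benjamini-Hochberg adjustment, and was tested on simulated data. The 4 arrays per group limit precision. The 10 genes, the 14 lists, the tests and the alternatives were chosen with earlier results of these data known. Named were the 10 genes, the 10 most like Trdn, up to 3 genes per calcium list by unadjusted p, and markers from the lists. Ucp1 and Adipoq stood first in their lists, but Actc1, Myl7, Tnnt2, Nppa and Myh4 did not. The ranking for 10362404 and the chromosomal neighbours were added after its values were seen. Same-numbered arrays did not deviate together (correlations -0.15 to 0.09), but this cannot show whether the numbers pair the samples. The labels state no pairing, and the main fit used none.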

Additional observations from a re-analysis of the deposited data

Results flagged for a closer look

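A sample far from the 3 others of its group, by Dixon's criterion at the 95% level, was found in 13 of 88 sets of 4 values, where chance gives about 1 in 20. RictoraP2KO replicate 2 was the distant array in 7 of them. It stood at 1.73 for Trdn probe set 10362416, 3.20 for 10362418, 5.51 for 10362432 and 3.80 for 10362436. It stood at 3.18 for Ryr1 and 6.11 for Atp2a1, and at 0.96 for the mean of the skeletal muscle list. In these 4 Trdn probe sets the other knockout arrays lay at 1.22 to 1.26, 1.99 to 2.09, 4.82 to 4.93 and 1.56 to 1.59.

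Control replicate 2 was distant for Trdn probe set 10362420, at 5.57 where the other controls lay between 5.20 and 5.26, and for the lung epithelial list, at 2.30. Control replicate 3 was distant for Trdn probe set 10362454, at 1.42 and with little spread in the others, and for the neuron list, at 1.22. RictoraP2KO replicate 3 was low for Jph1, at 3.45, and RictoraP2KO replicate 1 was high for the mean of the fat cell list, at 0.22. The median of that list in the array was 0.016, and Lep, which encodes leptin, stood at 5.81 there and between 2.74 and 3.76 in the others. The same array had the lowest brown fat mean (-0.55), with Elovl3 at 6.84. None of these markers' part in the Trdn values was tested beyond the covariate fits and omissions given with them.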

How the results depend on the processing

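The Trdn difference on probe set 10362420 lay between 1.20 and 1.39 over 18 alternatives, all 8 omissions of 1 array included. As the mean over the 19 probe sets it was 0.50. As the difference of per-array medians over the 19 it was 1.05, but a different probe set can be the middle one in each array, and the median of the 19 differences themselves was 0.34. Of 168 values of the other 9 genes under alternatives, 24 turned sign and 0 passed (lowest adjusted p = 0.681); only Ryr2 kept its sign in all. With RictoraP2KO replicate 2 and control replicates 2 and 3 left out, differences were -0.43 for Casq2, -0.012 for Ryr1, -0.095 for Atp2a1 and -0.14 for Atp2a2. With the skeletal covariate they were -0.25 for Casq2 and -0.11 for Atp2a2, and with array weights -0.13 and -0.015. The Jph2 difference as the mean over its probe sets was 0.027. Over the omissions of 1 array the ranges were -0.23 to 0.20 for Asph, -0.24 to 0.064 for Casq1, -0.34 to 0.17 for Casq2, -0.0094 to 0.19 for Ryr1, -1.12 to -0.33 for Ryr2, -0.13 to 0.026 for Jph1, -0.081 to 0.023 for Jph2, -0.050 to 0.85 for Atp2a1 and -0.18 to 0.16 for Atp2a2. The skeletal marker difference ran from -0.091 to 0.31 and the cardiac one from -0.40 to 0.26. The number of probe sets past the threshold, 1, was 0 without dim probe sets, which leaves fewer probe sets tested, 0 with the replicate block, 0 without the 3 arrays, and 0 to 5 over omissions of 1 array, 5 being without RictoraP2KO replicate 1. With the replicate number as a block Trdn 10362420 again differed by 1.26, and no call among the 9 other genes changed. Other causes of these shifts were not tested. Casq1, Ryr1, Jph2 and 13 of the 19 Trdn probe sets, 10362440 with the largest difference among them, lay below the array median on average, and signal over background was not analysed here.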
